A study of Mus musculus with 8 samples.

Results

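The oxidative stress genes regulated by the NRF transcription factors were examined as 1 family of 10 genes among the 31053 genes listed for each library. The genes were chosen by symbol: Hmox1, Nfe2l1, Nfe2l2, Keap1, Nqo1, Gclc, Gclm, Txnrd1, Srxn1 and Prdx1. Single cells of mouse parietal bone were sequenced from pups aged P4-5 in 8 libraries, each pooled from animals of 1 genotype. WT mice gave the 4 libraries S1, S2, S5 and S6. Het mice gave the 4 libraries S3, S4, S7 and S8 and carried 1 copy of the G610C allele of Col1a2, which puts cysteine in place of a glycine in the α2 chain of type I collagen and models osteogenesis imperfecta. Both genotypes came from the strain B6.129(FVB)-Col1a2tm1Mcbr/J, and the labels name no treatment. The allele is in every cell of the animal, not in osteoblasts alone. S1 to S4 were made with kit version 3 and S5 to S8 with kit version 3.1, each kit version holding 2 WT and 2 Het libraries.

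NRF2 (Nfe2l2) and NRF1 (Nfe2l1) are related transcription factors that bind antioxidant response elements together with small MAF proteins. KEAP1 holds NRF2 in the cytosol and hands it to a ubiquitin ligase until oxidants or electrophiles modify KEAP1. NRF1 sits in the membrane of the endoplasmic reticulum (ER), where it is processed, and is best known for raising proteasome genes. Their targets make glutathione (Gclc, Gclm), reduce thioredoxin (Txnrd1) and peroxides (Prdx1, Srxn1), reduce quinones (Nqo1) and break down haem (Hmox1). Secretory cells such as osteoblasts make oxidants while forming disulfide bonds in the ER, and the study asked how osteoblasts respond to misfolded procollagen.

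Of 68625 cell barcodes, 46420 were kept, those with 500 or more genes detected and less than 10% of their UMIs (unique molecular identifiers, 1 per captured transcript) from mitochondria. Osteoblasts (OBs) were selected on Col1a1, with 10 or more UMIs, and on Runx2, Sp7 and Ibsp, of which no fewer than 2 genes needed 2 or more UMIs. This gave 2671 cells. Their stage was set by the share of Col1a1 among the UMIs of the cell: 379 early OBs (eOBs) had under 0.75%, 1217 differentiating OBs (dOBs) had 0.75% to 3.5%, and 1075 mature OBs (mOBs) had more. None of the 10 genes took part in this selection. The remaining 43749 cells served as a comparison. UMIs were summed per library, and levels are in CPM (counts scaled to a common total of UMIs), with TMM factors between libraries in the populations tested. All 6 OB markers left out of the selection (Bglap, Alpl, Ifitm5, Dmp1, Spp1 and Phex) were detected in the mOBs of every library, at a summed level of 11596 to 46974 CPM, against 108 to 466 CPM in macrophage-like cells. The libraries held between 30480239 and 85162035 UMIs, with 42 to 299 mOBs and 22 to 95 eOBs each. The cells outside the OBs differed in kind between libraries: erythroid-like cells numbered 1434 in WT S2 and 0 in Het S8, and chondrocyte-like cells 156 in WT S1 and 7561 in WT S5.

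The bases before the gene starts are shown for the members in which the core of the antioxidant response element was found, because that element is what NRF1 and NRF2 bind. The RefSeq promoter table for GRCm38.p6 (250 bases before to 50 bases after each start) held 14 promoters of 8 members, and none for Hmox1 and Gclc. The core TGACNNNGC was searched on both strands and was found in 5 of the 14 promoters, 1 each of Nfe2l2, Srxn1, Gclm, Prdx1 and Txnrd1, and in 12.4% of all 32851 promoters in the table. The match in Srxn1 began 28 bases after the start and is not shown. The other matches are in capitals below, on the strand of the gene, and began 240, 134, 133 and 92 bases before the start in Nfe2l2, Gclm, Prdx1 and Txnrd1. The last is at the second of 3 Txnrd1 starts in the table. A match is a description of the letters and not a site of binding.
Nfe2l2, chr2:75704859-75704913, minus strand: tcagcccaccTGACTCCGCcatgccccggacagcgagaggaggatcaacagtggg
Gclm, chr3:122245387-122245467, plus strand: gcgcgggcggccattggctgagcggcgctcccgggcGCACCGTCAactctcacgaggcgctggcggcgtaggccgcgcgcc
Prdx1, chr4:116685430-116685510, plus strand: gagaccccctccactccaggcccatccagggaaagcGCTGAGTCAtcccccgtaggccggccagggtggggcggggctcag
Txnrd1, chr10:82859078-82859158, plus strand: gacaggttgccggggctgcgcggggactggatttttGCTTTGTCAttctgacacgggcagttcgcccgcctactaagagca

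The first comparison asked whether the family was changed in Het mOBs, the cells with the highest share of Col1a1. The family was taken up with differences in these cells already known, so the values describe it and are not independent support. Hmox1, Nfe2l1, Gclc and Srxn1 were higher in Het at an unadjusted p under 0.05, and none passed the adjustment over all genes. Nfe2l2, Keap1, Gclm, Txnrd1 and Prdx1 had log2 fold changes from -0.17 to 0.18, and Nqo1 was too low to be tested. By edgeR's quasi-likelihood test with kit version in the model, 0 of the 9 tested members were called at an adjusted p under 0.05, where 0.530% of all 9623 tested genes were called. At an unadjusted p under 0.05 there were 4 of 9 members, all higher in Het, beside 11.2% of all genes in either direction and 6.05% higher in Het. DESeq2 called 1 member, Hmox1, and 1.35% of all genes. Without Het S7, edgeR called Hmox1 at a log2 fold change of 2.07 and Nfe2l1 at 0.69, with adjusted p-values of 0.0224 and 0.0354, and 1.73% of all genes. The median log2 fold change of the 9 members was 0.18, beside 0.01 over all genes tested.

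Hmox1 (heme oxygenase 1, GRCm38 chromosome 8, 75093621 to 75100589, plus strand) had the largest fold change of the family. Its TMM-scaled level was 7.13, 2.61, 7.58 and 4.44 CPM in WT mOBs (S1, S2, S5, S6) and 22.9, 37.1, 7.68 and 16.2 CPM in Het mOBs (S3, S4, S7, S8). All Het libraries lay above all WT libraries, though S7 and WT S5 were nearly level. On this TMM scale Hmox1 was the only member of the 9 tested with all Het libraries above all WT libraries in mOBs. Of the genes tested, 1.14% had that order. The means were 5.44 ± 2.34 CPM in WT and 21.0 ± 12.4 CPM in Het (SD, n = 4 libraries each). The log2 fold change fitted by edgeR with kit version in the model, which is not the ratio of these means, was 1.57 (SE 0.40) with an adjusted p of 0.123. These levels rest on few transcripts, 10, 3, 38 and 24 UMIs in the WT libraries and 30, 93, 18 and 12 UMIs in the Het libraries.

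**Figure D1:**
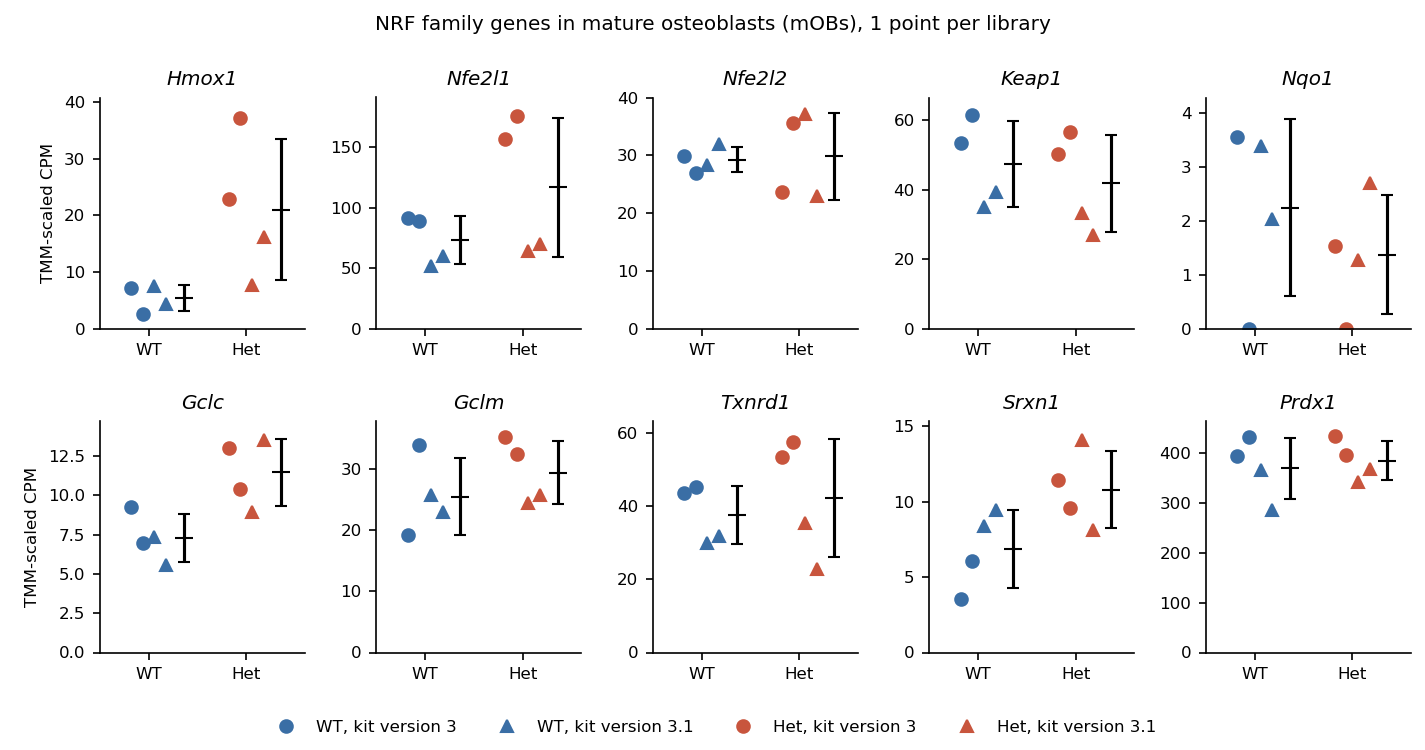
TMM-scaled CPM (vertical axes, each from 0) of the 10 genes in mOBs, 1 point per library, circles for kit version 3 and triangles for kit version 3.1, with the mean and SD of each group in black. The 4 Het libraries sit above the 4 WT libraries for Hmox1, and within each kit version for Nfe2l1 and Gclc.

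Single cells weighed on some of the Hmox1 sums. In Het S4 1 mOB held 33 of the 93 UMIs, and this cell also held 72 UMIs of 7 of the 8 macrophage markers (Adgre1, C1qa, C1qb, C1qc, Csf1r, Mrc1, Ms4a7, Cd163). Without the mOBs that had at least 2 detected macrophage markers, the Hmox1 level without TMM factors was 21.3 CPM in place of 32.6 CPM in Het S4 and 3.77 CPM in place of 5.999 CPM in WT S1, and the log2 fold change was 1.51, with an edgeR adjusted p of 0.118. Without the mOB with the most Hmox1 UMIs in each library it was 1.39, with an edgeR adjusted p of 0.174, and the Het libraries still ran from 8.41 to 21.2 CPM against 1.49 to 8.13 CPM in WT. The summed level of the macrophage markers in mOBs was 6.24 to 75.0 CPM in WT and 3.01 to 34.3 CPM in Het libraries, with 0 to 5 of the 8 markers at 0 in WT and 0 to 6 in Het. In macrophage-like cells it was 10428 to 17210 CPM in WT and 10834 to 15922 CPM in Het. Both left-out sets were chosen after the values were seen.

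Markers of OBs and of other cell types were compared between genotypes in mOBs. The summed level of the 6 OB markers not used in the selection was 35335 and 46974 CPM in WT S1 and S2 and 20294 and 18465 CPM in Het S3 and S4. In kit version 3.1 it was 17675 and 18483 CPM in WT S5 and S6 and 11596 and 12843 CPM in Het S7 and S8. Both Het libraries were thus below both WT libraries in each kit version. The part of this difference in the Hmox1 and Nfe2l1 values was not tested. The 11 haematopoietic markers (such as Ptprc, Tyrobp and Lyz2) summed to 671 and 488 CPM in WT S1 and S2, 32.0 and 164 CPM in Het S3 and S4, 17.8 and 9.57 CPM in WT S5 and S6, and 8.32 and 1.504 CPM in Het S7 and S8. The 7 chondrocyte markers summed to 31.2 and 322 CPM in WT S1 and S2, 697 and 239.8 CPM in Het S3 and S4, 1024 and 998 CPM in WT S5 and S6, and 1437 and 2642 CPM in Het S7 and S8. Both Het libraries were above both WT libraries in kit version 3.1, and the genotypes overlapped in kit version 3. Chondrocyte-like cells had the highest mean level of Nfe2l1 of the 12 cell classes, and the part of these markers in its values was not tested. Without the OBs that had 3 or more of the haematopoietic markers, the log2 fold change was 1.45 for Hmox1 and 0.52 for Nfe2l1, with edgeR adjusted p-values of 0.139 and 0.116.

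Nfe2l1 (NRF1, chromosome 11, 96817414 to 96829968, minus strand) was measured with more UMIs, 52 to 440 per library. Its level in mOBs was 91.2 and 88.6 CPM in WT S1 and S2 and 157 and 176 CPM in Het S3 and S4, and 51.8 and 60.5 CPM in WT S5 and S6 and 64.4 and 70.2 CPM in Het S7 and S8. The groups overlapped over all 8 libraries, since WT of kit version 3 lay above Het of kit version 3.1, but within each kit version both Het libraries were above both WT libraries. Without TMM factors the WT libraries had 58.5 to 76.8 CPM and the Het libraries 78.2 to 154 CPM, which did not overlap. Hmox1 and Gclc did not overlap on that scale either, and the share of all genes without overlap was not counted on it. The log2 fold change of Nfe2l1 in mOBs was 0.58 (SE 0.14), with an edgeR adjusted p of 0.0952. Hmox1, Nfe2l1 and Gclc had both Het libraries above both WT libraries in each kit version, 3 of the 9 tested members, and so did 5.26% of the tested genes.

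Gclc and Srxn1 were low genes with differences of like size. Gclc, the catalytic subunit of the enzyme that starts glutathione synthesis (chromosome 9, 77754535 to 77794485), had 9.26, 6.95, 7.38 and 5.55 CPM in the WT libraries and 13.0, 10.4, 8.96 and 13.5 CPM in the Het libraries, in the order used for Hmox1. S7 lay just under WT S1, the only overlap between the groups. Without TMM factors Gclc had 5.79 to 8.32 CPM in WT and 9.10 to 15.0 CPM in Het libraries, which did not overlap. Het over WT was 0.59 on the log2 scale (SE 0.25), with an edgeR adjusted p of 0.392. Srxn1, which restores overoxidized peroxiredoxins (chromosome 2, 152105516 to 152111376), had 3.56, 6.08, 8.38 and 9.43 CPM in WT and 11.5, 9.58, 14.1 and 8.10 CPM in Het libraries, in the same order. S8 fell inside the WT range. Het over WT was 0.68 on the log2 scale (SE 0.26), with an edgeR adjusted p of 0.332.

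The regulators and the other targets had smaller differences. Nfe2l2 (NRF2, chromosome 2, 75675513 to 75704641) was at 26.9 to 32.0 CPM in WT and 23.0 to 37.1 CPM in Het mOBs, a difference of 0.10 (SE 0.17) on the log2 scale. Keap1 (chromosome 9, 21229730 to 21239361) was the 1 tested member below 0, at -0.17 (SE 0.13), with 35.1 to 61.7 CPM in WT and 27.0 to 56.7 CPM in Het libraries. For both regulators the genotypes overlapped. Gclm, the modifier subunit that partners Gclc, had 19.2 to 33.9 CPM in WT and 24.3 to 35.1 CPM in Het libraries (log2 fold change 0.18, SE 0.18). Txnrd1, the cytosolic thioredoxin reductase, had a log2 fold change of 0.18 (SE 0.14), and Prdx1, an abundant peroxiredoxin, one of 0.06 (SE 0.12), with 286 to 432 CPM in WT and 342 to 435 CPM in Het mOBs. These 5 genes had edgeR adjusted p-values between 0.690 and 0.903. Nqo1 had 5, 0, 17 and 11 UMIs in WT and 2, 0, 3 and 2 UMIs in Het mOBs, too few to compare. A count of 0 allowed up to 2.17 CPM in WT S2 (the level of 3 UMIs, for counting error only).

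The 4 libraries of each kit version were then fitted for their own genotype change in the same model. For Hmox1 the log2 fold change in mOBs was 2.61 (SE 0.49) in kit version 3 and 0.75 (SE 0.47) in kit version 3.1, and for Nfe2l1 it was 0.89 (SE 0.14) and 0.24 (SE 0.15). Both genes were above 0 in each kit version. The difference between kit versions was -1.87 for Hmox1 and -0.65 for Nfe2l1, with edgeR adjusted p-values of 0.343 and 0.262, which did not pass the threshold. Gclc was at 0.47 (SE 0.38) and 0.67 (SE 0.34), and Srxn1 at 1.12 (SE 0.44) and 0.47 (SE 0.31). Kit version and the release of the counting software changed together and cannot be told apart. The paper describes independent experiments with OBs of this age. A difference between experiments or pools of pups cannot be told apart from kit version either.

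**Figure D2:**
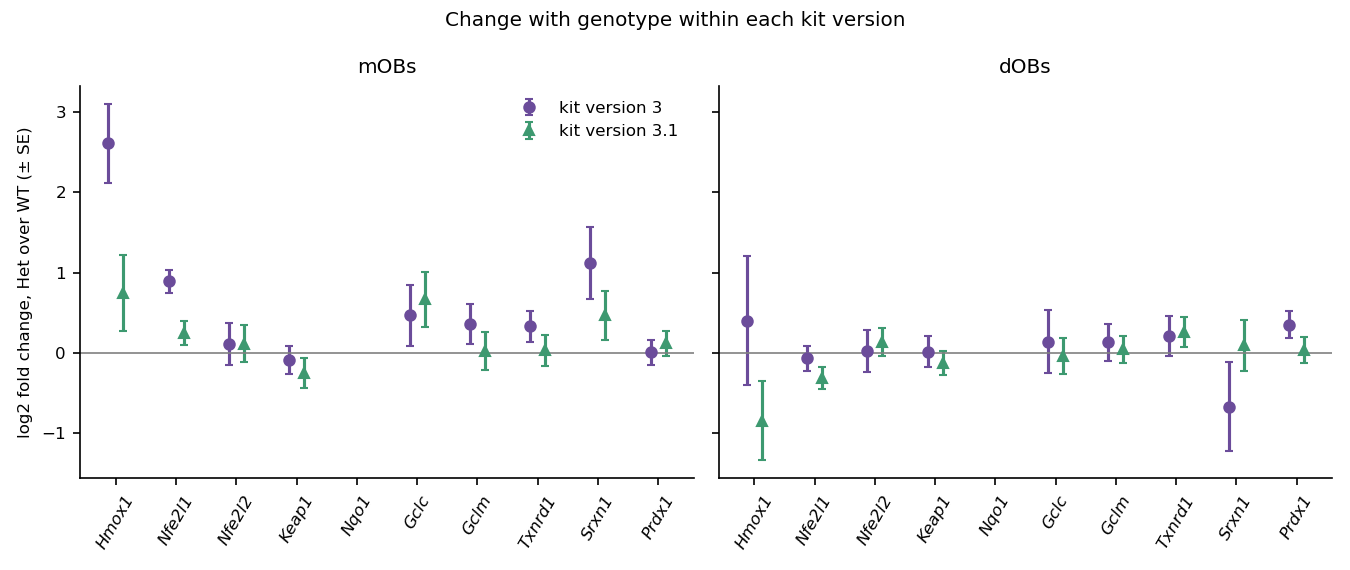
Log2 fold change of Het over WT with its SE (vertical axis) for each gene within kit version 3 (circles) and kit version 3.1 (triangles), in mOBs on the left and dOBs on the right. Genes too low to be tested have no point. In mOBs Hmox1 was at 2.61 in kit version 3 and 0.75 in kit version 3.1.

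Less mature OBs were compared the same way to find whether the differences were present before Col1a1 was high. In dOBs 0 of the 9 tested members were called and 0 had an unadjusted p under 0.05 by edgeR, while 0.0101% of all 9857 tested genes were called and 7.51% had an unadjusted p under 0.05. DESeq2 also called 0 members. Hmox1 had a log2 fold change of -0.47 (SE 0.45) in dOBs, with 17.3, 2.43, 33.2 and 10.4 CPM in WT and 14.2, 19.97, 13.5 and 9.91 CPM in Het libraries. All Het values lay inside the WT range. In WT S5 1 dOB held 88 of the 218 Hmox1 UMIs, and it had 0 macrophage markers detected. The 12 dOBs of WT S5 with at least 2 of these markers held 49 of the 218. In Het S4 1 dOB with all 8 markers, at 100 marker UMIs, held 10 of the 20 Hmox1 UMIs, and in WT S1 1 dOB with all 8, at 178 marker UMIs, held 4 of the 20. The part of these cells in the dOB values was not tested. Nfe2l1 had a log2 fold change of -0.20 (SE 0.11) in dOBs, with 80.4 to 165 CPM in WT and 66.6 to 146 CPM in Het libraries. Srxn1 was at -0.11 (SE 0.29), and Txnrd1 had the highest value of the 9, 0.24 (SE 0.15).

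In eOBs 0 of the 8 tested members were called, with 0 at an unadjusted p under 0.05 by edgeR and 0 called by DESeq2, while 0% of the 8118 tested genes were called and an unadjusted p under 0.05 was found for 3.82%. The log2 fold changes ran from -0.16 (Keap1) to 0.21 (Gclc). Hmox1 was at 0.08 (SE 0.36), with 12.3 to 36.3 CPM in WT and 14.1 to 31.1 CPM in Het eOBs. These sums were small, with 3 to 38 Hmox1 UMIs per library. In Het S7 1 eOB held 12 of the 31, and it also held 490 UMIs of all 8 macrophage markers.

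A further test, with the library as a block, asked whether the genotype difference was itself unequal in mOBs and dOBs. Nfe2l1 and Hmox1 were among the 10 genes with the lowest p of 10580 tested, and neither passed the adjustment. The family was taken up with differences in mOBs known, so these ranks are a description and not independent support. The test was not repeated without the WT S5 dOB with 88 Hmox1 UMIs or the OBs with macrophage markers. The difference of the log2 fold changes (mOBs minus dOBs) was 0.74 (SE 0.15) for Nfe2l1, at rank 4 by p, and 1.93 (SE 0.43) for Hmox1, at rank 10, with edgeR adjusted p-values of 0.544 and 0.643. By edgeR 0 of the 9 tested members were called, with 2 at an unadjusted p under 0.05, while 0% of all genes were called and 4.61% had an unadjusted p under 0.05. DESeq2 called 0 members. Without Het S7, edgeR called 1 member, Hmox1, and 0.0760% of all genes. Just under the 3.5% limit on Col1a1, the 118 Het OBs from 2.5% to 3.5% had 17.6 CPM of Hmox1 and the 249 WT OBs 11.8 CPM. Just over it, the 101 Het OBs up to 4.5% had 42.1 CPM and the 173 WT OBs 8.28 CPM, and without the S4 cell with 33 UMIs the Het value was 23.8 CPM. These sums pool the libraries of both kit versions. The S4 dOB with all 8 macrophage markers was at 2.55% Col1a1, so its 10 Hmox1 UMIs were among the 35 of the Het OBs under the limit. Under the limit in kit version 3, the 39 Het OBs had 26.3 CPM, from 14 UMIs that include those 10. The 21 WT OBs there had 4.14 CPM, from 1 UMI. In kit version 3.1 the 79 Het OBs under the limit had 14.4 CPM and the 228 WT OBs 12.3 CPM. Over the limit in kit version 3.1 alone, the 59 Het OBs had 12.9 CPM and the 161 WT OBs 8.82 CPM. Over the limit in kit version 3, the 42 Het OBs had 87.2 CPM, or 41.3 CPM without the S4 cell with 33 UMIs. The 12 WT OBs there held 0 Hmox1 UMIs, which allows up to 16.9 CPM.

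**Figure D3:**
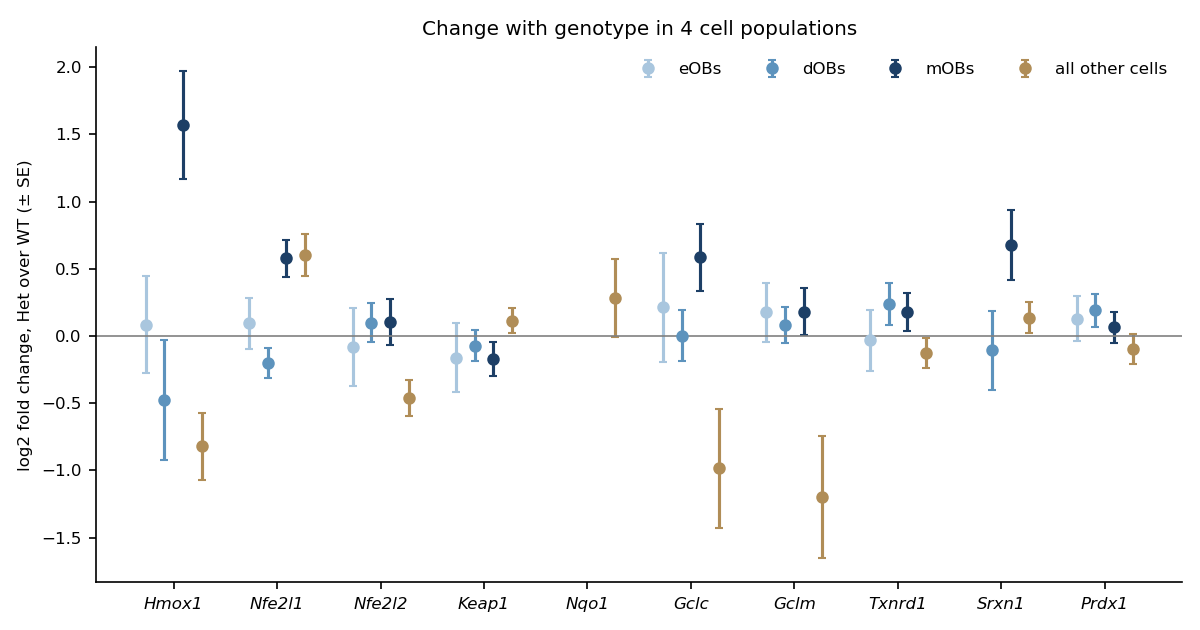
Log2 fold change of Het over WT with its SE (vertical axis) for each gene in eOBs, dOBs, mOBs and all other cells (colours). Genes too low to be tested have no point. Hmox1 was at 1.57 in mOBs and below 0 in dOBs and in the other cells, while Nfe2l1 was at 0.58 in mOBs and 0.60 in the other cells.

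The cells outside the OBs gave another pattern. By edgeR 0 of the 10 members were called in them, as were 0% of the 16502 tested genes, with 4 members and 25.7% of genes at an unadjusted p under 0.05. DESeq2 called 3 members, Hmox1, Nfe2l1 and Nfe2l2, and 11.8% of all genes. Nfe2l1 was higher in Het here too, with 88.1, 74.1, 82.0 and 93.1 CPM in WT and 152, 159, 111 and 99.5 CPM in Het libraries, all Het above all WT. Of all genes tested, 2.30% had that order. Its log2 fold change was 0.60 (SE 0.16), with an edgeR adjusted p of 0.169. The other 3 had negative log2 fold changes, -0.82 (SE 0.25) for Hmox1, -0.46 (SE 0.13) for Nfe2l2 and -1.20 (SE 0.45) for Gclm. Their edgeR adjusted p-values were 0.171, 0.171 and 0.1801. Between kit versions the genotype change in these cells differed for 3 of the 10 members (Hmox1, Nfe2l1 and Gclc) and for 24.7% of all genes tested (edgeR, adjusted p under 0.05). These libraries differ in the cells they hold. Gclm, for which WT S1 and S2 had 115 and 340 CPM and all other libraries 25.5 to 58.6 CPM, was at 388 to 611 CPM in erythroid-like cells, of which S1 and S2 held 355 and 1434. Hmox1, at 114 to 1043 CPM in macrophage-like cells, had 28.1 to 54.4 CPM in WT and 18.5 to 30.6 CPM in Het libraries, and macrophage-like cells numbered 66 to 236 in WT and 44 to 267 in Het. Nfe2l1 had its highest mean in chondrocyte-like cells, of which WT S1 and S2 held 156 and 196 and Het S3 and S4 held 1214 and 1865. Within classes its mean level was 163 CPM in WT and 165 CPM in Het chondrocyte-like cells, 141 and 144 CPM in endothelial-like cells, and 62.0 and 58.4 CPM in macrophage-like cells, and the ranges of the genotypes overlapped in each. The part of cell numbers in these differences was not tested, and in sums over mixed cells a change in the number of cells of a type cannot be told apart from a change in RNA per cell.

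Levels over the OB stages were compared within libraries, over both genotypes, on a TMM scale fitted over the stages, so CPM differ somewhat from those above. Nfe2l2 and Gclm were lower in mOBs than in eOBs, though Nfe2l2 was not called without the low-count filter and Gclm was not called in WT libraries alone. Nfe2l2 fell from 48.7 ± 14.7 CPM in eOBs to 41.1 ± 5.58 CPM in dOBs and 35.7 ± 6.06 CPM in mOBs (SD, n = 8 libraries), and it was lower in mOBs in all but 1 library, Het S3. On the log2 scale mOBs minus eOBs was -0.46 (SE 0.12), with an edgeR adjusted p of 0.00539. Gclm fell from 50.3 ± 18.8 to 46.9 ± 8.77 and 33.2 ± 7.15 CPM and stood below its eOB level in the mOBs of 8 libraries out of 8. The log2 difference was -0.50 (SE 0.13), and the edgeR adjusted p was 0.00564. These were 2 of the 9 tested members, while 35.5% of the 9991 tested genes were called between these stages. Of 13 tested genes that respond to cell dissociation, 10 were called lower in mOBs and 0 higher, with a median of -1.60. The 5 erythroid markers measured summed to 0.894 to 315 CPM in eOBs, highest in WT S2, without TMM factors. In mOBs they summed to 0.520 to 53.5 CPM. Gclm in eOBs was also highest in WT S2, at 81.4 CPM. The part of either list in the Nfe2l2 and Gclm values was not tested. Nqo1, which was too low for the test, had 9.61 ± 6.34, 4.38 ± 1.64 and 2.19 ± 1.66 CPM in eOBs, dOBs and mOBs, and was above its eOB level in the mOBs of 0 of 8 libraries, with 0 UMIs at both stages in WT S2. The 7 chondrocyte markers summed, without TMM factors, to 31.1 to 25991 CPM in WT and 1675 to 10967 CPM in Het eOBs. In mOBs they summed to 31.2 to 1024 CPM in WT and 240 to 2642 CPM in Het libraries. Nqo1 in eOBs was highest in WT S5, at 19.5 CPM, where these markers were at 25991 CPM. Chondrocyte-like cells had the highest Nqo1 of all cell classes, and the part of these markers in its values was not tested.

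The other tested members were not called over the stages in the 8 libraries with the low-count filter. Keap1 had a log2 difference of 0.27 (SE 0.12) with an edgeR adjusted p of 0.0793, and its mOB level was above its eOB level in 7 of 8 libraries. It was called, as higher in mOBs, without WT S5 and without the filter. The log2 difference was 0.09 (SE 0.12) for Nfe2l1, 0.08 (SE 0.13) for Txnrd1 and 0.08 (SE 0.07) for Prdx1. Hmox1 had 10.5 to 31.3 CPM in eOBs and 3.19 to 44.9 CPM in mOBs. It was lower in mOBs in all WT libraries, and in Het higher in S3 and S4 and lower in S7 and S8. Its log2 difference was -0.74 (SE 0.38), with an edgeR adjusted p of 0.143. Hmox1 was called, as lower in mOBs, in WT libraries alone, without Het S4, and with mOBs above 5% and eOBs under 0.5% Col1a1. In these alternatives over the stages 2263 to 4326 genes were called in all.

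**Figure D4:**
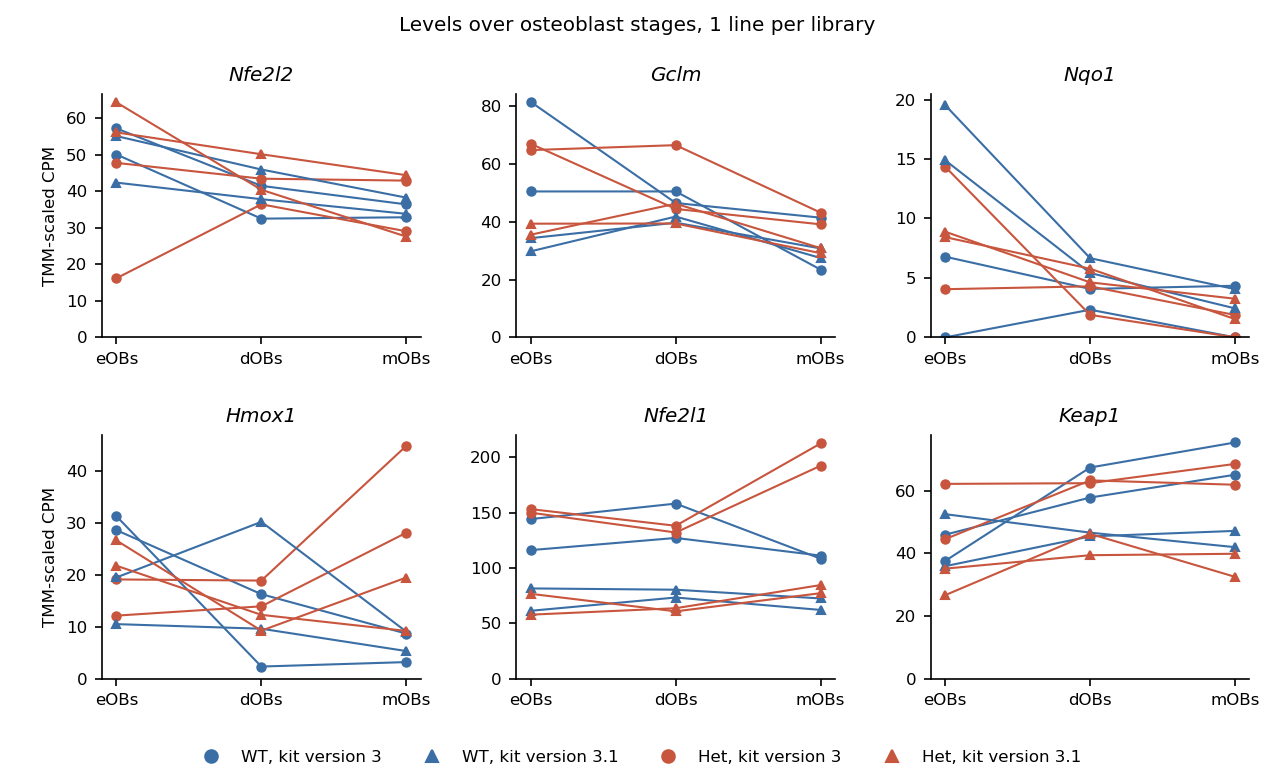
TMM-scaled CPM (vertical axes, each from 0) of 6 of the genes in eOBs, dOBs and mOBs, 1 line per library, with colour for genotype and marker shape for kit version. Gclm was lower in mOBs than in eOBs in 8 of 8 libraries, and the 2 Het libraries of kit version 3 had the highest Nfe2l1 in mOBs.

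Several members had their highest level in a cell class outside the OBs. Other cells were named by at least 3 markers with 2 or more UMIs of 1 class only. Values are unscaled mean CPM ± SD over the libraries with at least 10 such cells, and no test was made. Hmox1 was highest in macrophage-like cells, which recycle haem from red cells, at 406 ± 313 CPM (n = 8). Single libraries had 456, 1043, 587 and 175 CPM in WT and 180, 192, 500 and 114 CPM in Het, and the groups overlapped. It came next in smooth muscle or pericyte-like cells, at 39.3 ± 52.8 CPM, where WT S2 had 169 CPM and the others 13.9 to 29.2 CPM. It was at 12.7 ± 10.1 CPM in mOBs, and at 1.22 ± 2.06 CPM in B lineage-like (n = 5) and 0.343 ± 0.546 CPM in erythroid-like cells (n = 6).

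Gclm had 516 ± 76.0 CPM in erythroid-like cells (n = 6), and the next class, endothelial-like cells, had 60.4 ± 16.2 CPM. Their ranges did not overlap. Gclc was highest in B lineage-like cells, at 130 ± 81.0 CPM, and in erythroid-like cells, at 104 ± 58.2 CPM, which overlapped. Txnrd1 had 175 ± 18.5 CPM in osteoclast-like cells (n = 8), with 147 to 195 CPM in single libraries, above every macrophage-like value (73.8 ± 36.8 CPM). Nqo1 was highest in chondrocyte-like cells, at 37.2 ± 13.0 CPM, against 1.88 ± 1.41 CPM in mOBs. Nfe2l2 and Prdx1 were highest in macrophage-like cells, at 218 ± 121 and 1073 ± 286 CPM, and Nfe2l2 there was at 86.4 to 134 CPM in kit version 3 and 302 to 349 CPM in kit version 3.1. Of 11 pairs of neighbouring classes in the order of the means, only 1 pair each for Gclm, Txnrd1 and Prdx1 had ranges apart, and for the other 7 members all neighbours overlapped.

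**Figure D5:**
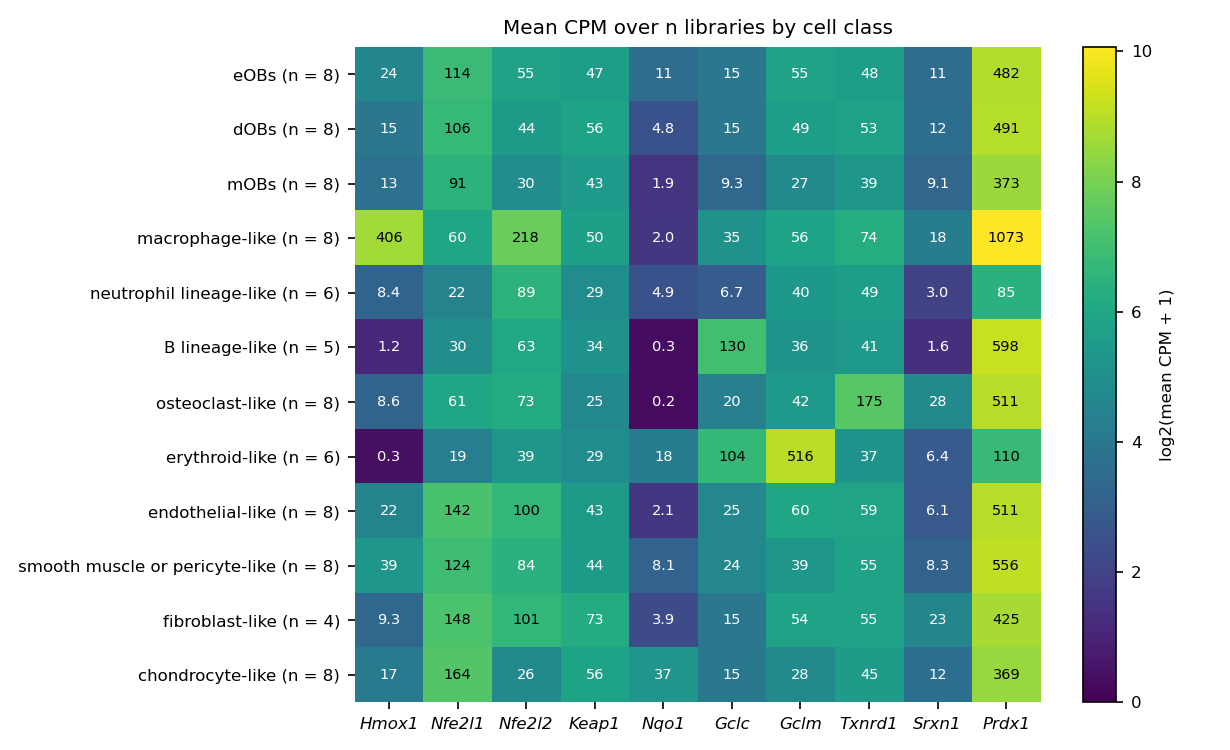
Mean CPM over n libraries (numbers in the cells, colour on a log2 scale of the mean CPM plus 1) of the 10 genes in the 3 OB stages and 9 marker-defined classes of other cells. Hmox1 stands out in macrophage-like cells (406 CPM), Gclm in erythroid-like cells (516 CPM) and Txnrd1 in osteoclast-like cells (175 CPM).

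The genes most like each member over the 85 values of 12 cell classes and their libraries were found by Pearson's r of log2(CPM + 1). These values share libraries and depth, so r is a description. For Hmox1 they were Lamp1 (r = 0.809), Wwp1 (r = 0.801) and B4galt6 (r = 0.793). For Gclm the most like gene was 6030468B19Rik (r = 0.890), for Prdx1 Dusp22 (r = 0.882), for Nfe2l1 Cul7 (r = 0.862), and for the other members r was between 0.739 (Zfp703 for Srxn1) and 0.797 (Uqcr10 for Txnrd1).

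Other genes of the same pathways were counted in mOBs from lists of related genes, beside 0.530% of all genes called and 11.2% at an unadjusted p under 0.05. The genes Mgst3, Gpx3, Sesn1, Slc40a1 and Syvn1 are named because they passed the unadjusted threshold, and were chosen after their values were seen. Of the tested genes for glutathione synthesis and use, 1 of 15 was called, Slc3a2, the heavy chain of amino acid exchangers including the cystine importer, which was higher in Het by 1.13 on the log2 scale (SE 0.16) with an edgeR adjusted p of 0.00637. In dOBs its value was 0.14 (SE 0.13). Its usual partner for cystine, Slc7a11, was too low to be tested in mOBs. Glutathione reductase Gsr was at -0.35 (SE 0.16), with an edgeR adjusted p of 0.416. At an unadjusted p under 0.05 there were 4 of 15, 2 higher in Het (Slc3a2 and the glutathione transferase Mgst3, at 0.79) and 2 lower (Gsr and the secreted peroxidase Gpx3, at -0.85). The median of the list was 0.03. Among 14 thioredoxin and peroxiredoxin genes 0 were called by edgeR, with 2 at an unadjusted p under 0.05 in opposite directions, Txn1 at 0.35 (SE 0.11) and the sestrin Sesn1 at -0.55 (SE 0.18). The thioredoxin inhibitor Txnip was at 0.17 (SE 0.18). Of 13 genes for NADPH supply and detoxification 0 were called by edgeR and 2 had an unadjusted p under 0.05, both higher in Het, with 0.75 (SE 0.21) for malic enzyme Me1 and 0.72 (SE 0.24) for G6pdx, which feeds the pentose phosphate pathway.

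The iron and haem list had 0 of 11 genes called by edgeR, 1 at an unadjusted p under 0.05, the iron exporter Slc40a1 at -0.73 (SE 0.31), and a median of -0.05. The values were -0.05 (SE 0.13) for ferritin heavy chain Fth1 and -0.20 (SE 0.14) for the light chain Ftl1. Of 3 genes for superoxide dismutases and catalase 0 were called and 0 had an unadjusted p under 0.05 by edgeR, with -0.03 (SE 0.15) for the mitochondrial Sod2 and -0.05 (SE 0.21) for catalase (Cat). Of the NRF partners and controllers 0 of 12 were called by edgeR and 1 had an unadjusted p under 0.05, the ER ubiquitin ligase Syvn1 at -0.46 (SE 0.20). The values were 0.33 (SE 0.18) for the repressor Bach1, 0.24 (SE 0.16) for Mafg and 0.08 (SE 0.13) for the autophagy receptor Sqstm1. The proteasome subunits, which NRF1 controls, had 0 of 32 called by edgeR and 4 at an unadjusted p under 0.05, all higher in Het, beside 6.05% of all genes. All 32 had a log2 fold change above 0, beside 51.8% of all genes, with a median of 0.18 beside 0.01 over all genes. Psmd1 was at 0.39 (SE 0.13) and Psmb5 at 0.22 (SE 0.11). In dOBs, where Nfe2l1 was at -0.20, all 32 were also above 0, beside 48.9% of all genes, with a median of 0.21. Of these, 6 had an unadjusted p under 0.05, all higher in Het, beside 3.62% of all genes. In eOBs 24 of 32 were above 0, beside 49.9% of all genes, with a median of 0.12. In the other cells 1 of 32 was above 0, beside 52.3% of all genes, with a median of -0.16.

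Genes known to respond to cell dissociation were counted in mOBs as well. Of 12 tested, 1 was called, Fos, an immediate early gene, which fell by 1.16 on the log2 scale (SE 0.19) with an edgeR adjusted p of 0.0197. At an unadjusted p under 0.05 there were 5 of 12, all lower in Het, beside 5.13% of all genes, and the median was -0.41. The summed level of the 15 listed genes in mOBs was 631 to 1316 CPM in WT and 558 to 1025 CPM in Het libraries, and all 15 were detected in every library but WT S2, with 14. Its part in the levels of the NRF family was not tested.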

How the data were processed

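The deposited matrices are raw UMI counts by gene and barcode, not normalized. Per the labels, Cell Ranger and the mouse build mm10 were used by the authors, and the Cell Ranger release changed with the kit version. Depth is given above; no column was left out. Here cells were selected, staged and summed as described, and libraries with under 10 cells of a class were left out. Doublets were not removed. Barcodes shared by a pair of libraries numbered 2 to 61, at most 0.663% of the smaller library. Sums were tested with edgeR 4.0.16 (filterByExpr, TMM, estimateDisp, glmQLFit, glmQLFTest; limma 3.58.1, R 4.3.3) with kit version and genotype as terms, with Benjamini-Hochberg adjustment of p over all genes tested. Each SE is the absolute log2 fold change divided by the square root of the F statistic of the edgeR test, and was not estimated separately. DESeq2 1.42.0 was the alternative tool. mOBs and eOBs, and the genotype by stage term, were fitted with the library as a block. The steps were tested on simulated data. Since nothing pairs a pup with a library, p-values measure the spread between pooled libraries. Cells were handled in Python 3.11.15. Positions are from GENCODE M21.

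The members and the gene lists were chosen with earlier results of these data known. The genes named are the 10 members, every gene of the other lists that was called in mOBs, a set of fixed examples from these lists, and the genes most like each member (1 each, 3 for Hmox1, among genes with a mean of at least 20 CPM in a class). Mgst3, Gpx3, Sesn1, Slc40a1 and Syvn1 were named after their values were seen, for an unadjusted p under 0.05 in mOBs. Alternatives covered the tool, scaling, low-count filter, kit version term, replicate block, each library left out, OB selection, mitochondrial limit, Col1a1 limits, depth, haematopoietic markers and cells with most UMIs.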

Additional observations from a re-analysis of the deposited data

Results flagged for a closer look

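The genotype change in the cells outside the OBs differed between kit versions for 3 of the 10 members (36 differences were tested over 4 populations, edgeR, adjusted over all genes of each), beside 24.7% of the 16502 genes tested in these cells. In mOBs, dOBs and eOBs 0 members differed. For Hmox1 the change in kit version 3.1 minus that in kit version 3 was 1.10 with an adjusted p of 0.0293. The changes themselves were -1.38 and then -0.27. For Nfe2l1 the difference was -0.67 (adjusted p = 0.0390), from 0.94 to 0.27. For Gclc the difference was 1.90 (adjusted p = 0.0284), from -1.94 to -0.04. In kit version 3 the 2 WT libraries held 355 and 1434 erythroid-like cells and the 2 Het libraries 21 and 181, and in kit version 3.1 no library held more than 41. The part of these cells in the differences was not tested.

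Of 80 groups of 4 libraries, 1 had a library far from the other 3: Prdx1 in the eOBs of WT S6 was at 358 CPM and at 507 to 531 CPM in the other WT libraries. Chance flags about 1 in 20 such groups.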

How the results depend on the processing

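No member was called in mOBs in the analysis reported, and 1 was called by DESeq2 (Hmox1), 2 without the low-count filter (Hmox1 and Nfe2l1, among 536 genes), 1 with mitochondrial UMIs under 5% (Hmox1, among 59 of 9260 genes), and 0 to 2 when a library was left out (both genes without Het S7). Over 22 alternatives Hmox1 kept its direction, at a log2 fold change of 1.25 to 2.07, with an adjusted p under 0.05 in 4 and a range of 1.60e-07 (edgeR, no filter) to near 1 (no kit version). Nfe2l1 kept its direction in 23, at 0.455 to 0.694, and was under 0.05 in 2. After thinning to 2000 UMIs per cell Hmox1 was too low to be tested. Leaving out a library moved Nfe2l2 between -0.060 and 0.19 and Prdx1 between -0.027 and 0.11, and Prdx1 was -0.070 in mOBs above 5% Col1a1. In the other cells DESeq2 called 3 members. For the difference between mOBs and dOBs 2 were called without the filter (among 91 of 20344 genes) and 0 to 1 with a library left out (Hmox1 without S7). Over the stages 2 to 3 members were called, but not always the same: Keap1, Nqo1 and Gclm without the filter, Hmox1 and Nfe2l2 in WT libraries alone, and Nfe2l2 and Gclm in all other alternatives, with Hmox1 added without S4 and with the wider Col1a1 limits and Keap1 added without S5. Whether library numbers pair the samples could not be settled, since 2 libraries per genotype and kit version give only 1 correlation of deviations per kit version. These were -0.050 and -0.028 in mOBs and -0.122 and 0.0505 in dOBs. With a replicate block within kit version 0 members and 26 genes were called in mOBs, and the block changed no call of a member. Of all genes, 51 were called in mOBs in the analysis reported, 130 by DESeq2, 82 above 5% Col1a1, 29 after thinning, 0 without kit version and 11 to 166 with a library left out (11 without S2, 166 without S7). In the other cells DESeq2 called 1947 genes, edgeR 0, and edgeR without the filter 89. Without the filter 269 genes were called in dOBs and 141 in eOBs. The cause was not tested. The low UMI numbers of Hmox1, Gclc, Srxn1 and Nqo1 limit the precision of their changes.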
